A study of Mus musculus with 2 samples.

Results

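The genes described here encode 31 proteins of the lysosome: glycosidases, sulfatases, lipid hydrolases, a phosphatase, a peptidase, activator proteins and proteins of the lysosomal membrane, with the cathepsins left out. They were chosen by their known roles, with earlier results of these data known. All 31 had a probe set with a single gene symbol, out of 18193 genes so represented on the array, and where a gene had several, the brightest by mean log2 signal was used. Expression was measured on 2 Affymetrix arrays of cultured mouse bone marrow cells of strain C57/Black6, 1 array per group. Marrow from mice aged 8 weeks was grown for 3 days in M-CSF, the growth factor of the macrophage lineage, and the adherent cells served as progenitors of both groups. The macrophage group was then kept in M-CSF alone, and the osteoclast group received M-CSF plus RANKL, the ligand of the receptor RANK that induces osteoclasts, for 6 days before lysis. Both groups thus had M-CSF throughout, and the labels' protocols name no sorting of the cells and do not say whether the groups came from the same animals.

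Lysosomes are acidic organelles in which macromolecules taken up by a cell, or delivered from its own cytoplasm, are broken down. Their hydrolases act in sequence on a substrate, each removing a particular sugar, sulfate or acyl group, so that loss of a single enzyme can lead to a storage disease. Most of the soluble enzymes carry mannose 6-phosphate and are brought to the lysosome by its receptors, while membrane proteins such as LAMP1 and LIMP-2 travel by signals in their own tails. Macrophages use lysosomes to digest what they engulf. Osteoclasts send lysosome-related vesicles to the membrane facing bone, where their contents are secreted into the resorption space.

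With 1 array in each group no difference has a replicate check, so no test was run and no p-value is given, and precision is limited by the number of arrays. Signals are the deposited linear intensities. Most signals of the osteoclast array were dimmer: over the 23708 probe sets measured in both arrays the median log2 difference, osteoclast minus macrophage, was -0.43. Differences are given relative to this shift unless stated as deposited, and the deposited log2 difference is 0.43 lower in each case. A probe set counted as measured when its signal was above the 40th percentile of its array, which was 17.0 for macrophages and 14.4 for osteoclasts. The only spread available is that between probe sets of the same gene, an SD of 0.49 on the log2 scale over all genes and 0.48 over 56 probe sets of 22 of the lysosomal genes. It holds no variation between cultures or animals.

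The labelled cell types were read from their markers. All 10 osteoclast markers were at least 2-fold higher in the osteoclast array, among them Acp5 (104 against 8167) and Ctsk (134 against 9202), and 7 of 10 macrophage markers were at least 2-fold lower there, such as Adgre1 (5919 against 1107). The macrophage receptor gene Csf1r was bright in both (9899 and 6005). Granulocyte markers were also higher in the osteoclast array, where relative to the shift 9 of 13 measured genes were at least 2-fold higher and 1 was lower, against 5 higher and 2 lower as deposited. Among these calls, those of Elane (4.24 and 45.6), Ctsg (14.1 and 35.7) and Fcnb (57.0 and 6.09) rest on a value below the measured level in 1 array. The summed deposited signal of the granulocyte markers was 5336 in macrophages and 7295 in osteoclasts. Stromal markers had a summed deposited signal of 12669 in macrophages and 7282 in osteoclasts. Of 7 measured stromal genes, 2 were at least 2-fold higher and none lower relative to the shift, but 1 was higher and 2 were lower as deposited. Summed signals, which take in genes below the measured level as well, were lower in the osteoclast array for the other marker lists. They were 163 and 75.5 for B lymphocytes (3 of 5 genes measured) and 192 and 101 for dendritic cells (5 of 6). T and NK lymphocytes gave 654 and 262 (3 of 6), mostly from Il7r (565 and 176), while Cd5 was higher in osteoclasts (12.9 and 44.9). Megakaryocytes gave 8683 and 1804 (5 of 5), nearly all from Pf4 (8488 and 1609), which macrophages also make. Of these 5 genes 2 were above the shift and 3 below it. Vwf was higher in osteoclasts (13.9 and 95.5). The part of these cells in the lysosomal values was not tested, and in bulk RNA fewer cells of a type and less RNA per cell cannot be told apart. The arrays also differed in sex-linked genes: Xist, the RNA of the inactive X chromosome, gave 1872 in macrophages and 22.1 in osteoclasts, and the Y-linked gene Eif2s3y gave 0.571 and 321. By these genes the macrophage cells were from female and the osteoclast cells from male mice, and so from different animals. Treatment, animal and sex therefore cannot be told apart in any difference below.

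The 31 lysosomal genes did not move as a block between the cell types. All were measured in both arrays, the dimmest value being 120 for Sgsh in osteoclasts, far above the level at which a probe set counted as measured. Relative to the shift, 15 were higher and 16 were lower in osteoclasts, with a median log2 difference of -0.07, against 0 for all 13647 genes measured in at least 1 array. Of the 31 genes, 2 were at least 2-fold higher in osteoclasts, or 6.45%, where 7.11% of all measured genes were. In the other direction 4 were at least 2-fold lower, or 12.9%, where 6.99% of all measured genes were. As deposited, 8 were at least 2-fold lower and 2 at least 2-fold higher, beside 17.5% and 3% of all genes. The 4 genes added on that scale were Acp2, Lamp1, Lamp2 and Man2b1. As deposited, 26 of 31 signals were lower in osteoclasts, with a median log2 difference of -0.51. Most of all measured genes were lower on that scale too, with a median of -0.43. The direction of 10 of the 31 genes therefore turns with the scale. Moreover, 16 of the 31 differences were smaller than the SD between probe sets, so their order is not settled.

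**Figure D1:**
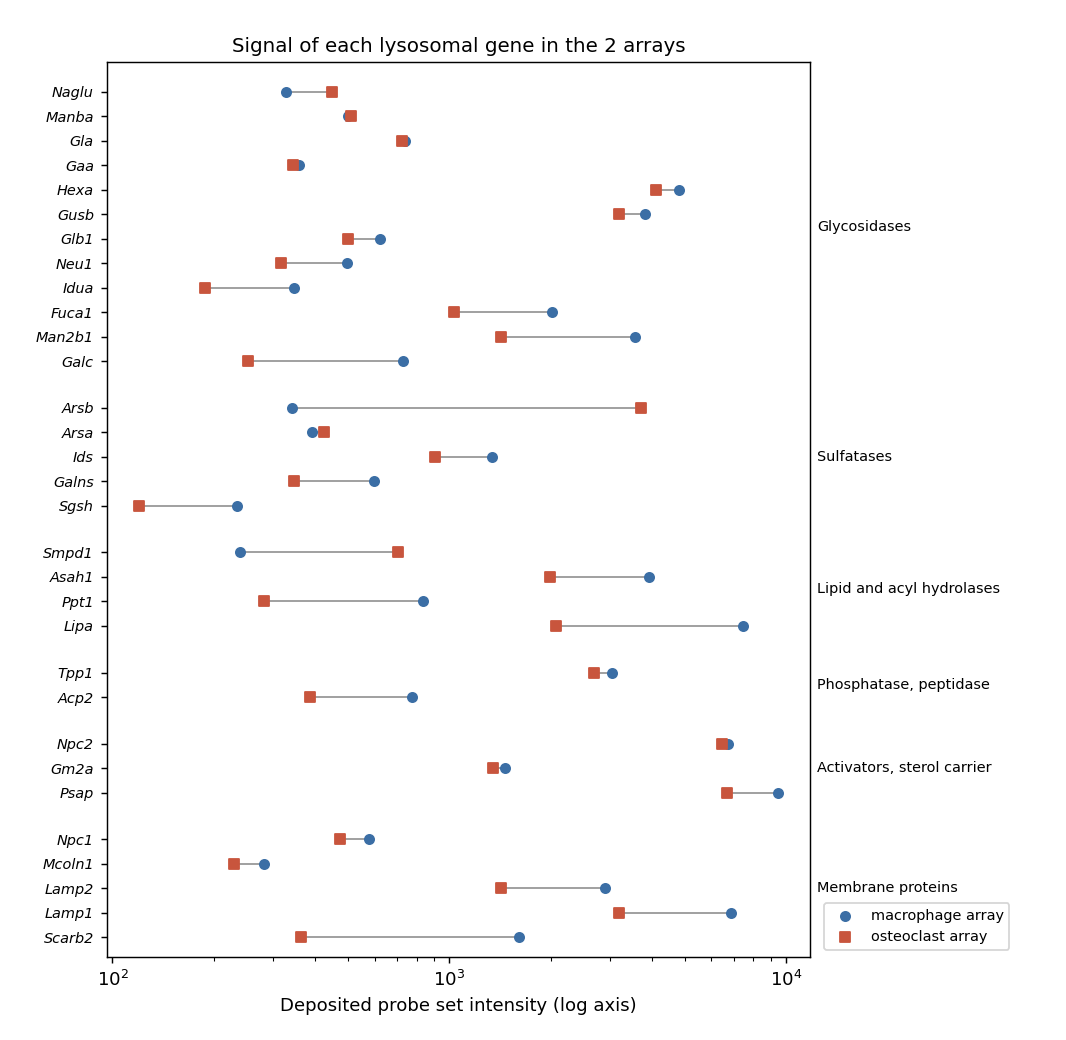
Deposited intensity of each of the 31 lysosomal genes (log axis) in the macrophage array (circles) and the osteoclast array (squares), grouped by role, 1 array per group and no error bars. Arsb runs from 340 to 3701 and Smpd1 from 240 to 705, while 26 of the 31 genes run the other way, Scarb2, Lipa, Ppt1 and Galc furthest. Most signals of the osteoclast array were dimmer, with a median deposited log2 difference of -0.43 over all measured genes. Lengths of the lines can be compared, but levels of different probe sets cannot.

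Because many lysosomal genes share an E-box bound by TFEB and its relatives, the MiT/TFE transcription factors, promoter sequences were read beside the expression values. RefSeq promoters (assembly GRCm38.p6, 250 bases before to 50 after the start) were found for 28 of the 31 genes (not Asah1, Galns and Npc1), and the letters CACGTG, which read the same on both strands, stood in those of 8. This is 28.6%, where 8.09% of the 27025 genes in the promoter table had them. The longer TCACGTGA, which contains that core, was found for Gla and Mcoln1 and for 1.12% of all genes. The full consensus, known as the CLEAR element, stood in none of the 28 windows and in those of 0.370% of all genes. A match is a description of these letters and not a binding site. The stretches around the matches are shown because these letters are known from lysosomal promoters, 5′ to 3′ along the gene's strand, with each CACGTG in capitals and all of them before the start:
Arsa (chr15:89477425-89477460, minus strand): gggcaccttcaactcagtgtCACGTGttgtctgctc
Gaa (chr11:119267803-119267848, plus strand): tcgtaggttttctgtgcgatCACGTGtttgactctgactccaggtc
Gla (chrX:134601174-134601252, minus strand): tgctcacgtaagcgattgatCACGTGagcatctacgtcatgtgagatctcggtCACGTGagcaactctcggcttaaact
Glb1 (chr9:114401010-114401055, plus strand): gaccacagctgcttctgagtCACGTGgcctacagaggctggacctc
Lamp1 (chr8:13159080-13159160, plus strand): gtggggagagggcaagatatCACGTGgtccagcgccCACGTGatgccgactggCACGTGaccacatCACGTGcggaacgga
Mcoln1 (chr8:3500428-3500499, plus strand): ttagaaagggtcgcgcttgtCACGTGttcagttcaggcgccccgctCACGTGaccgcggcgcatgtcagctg
Naglu (chr11:101070001-101070046, plus strand): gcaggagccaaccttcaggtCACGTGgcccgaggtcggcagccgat
Sgsh (chr11:119355514-119355559, minus strand): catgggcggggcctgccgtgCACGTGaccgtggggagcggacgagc

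Lamp1 held 4 copies within a short stretch, Gla and Mcoln1 2 each and the other 5 genes a single copy. None of these 8 genes differed by 2-fold or more relative to the shift, and 1, Lamp1, did as deposited. Their differences ran from -0.67 for Lamp1, the gene with the most copies, to 0.89 for Naglu, with a median of 0.26 and 6 of 8 above the shift. Of the 20 genes whose window lacked the letters, 8 were above the shift, with a median of -0.17, and all 6 of the genes that differed by 2-fold were among them. As deposited, 2 of the 8 and 3 of the 20 were higher in osteoclasts, and 9 of the 20 were at least 2-fold apart. Among all 13647 measured genes, 7.11% passed 2-fold upward and 6.99% downward, or 3% and 17.5% as deposited. A count of none among 8 genes therefore says little. Gaa, Gla, Glb1 and Mcoln1 lay closer to the shift than the SD between probe sets. The probe sets of Gla (-0.80 to 0.41) and of Sgsh (-0.54 to 0.02) spanned the shift. The groups with and without the letters overlapped widely, and what separates them was not tested.

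The factors that bind this element were themselves measured. Tfeb gave 139 in macrophages and 95.7 in osteoclasts (-0.11 relative to the shift) and Tfe3 gave 631 and 385 (-0.28). Mitf, needed for osteoclast formation, gave 1008 and 1051 (0.49), and its second probe set gave 0.86. Tfec, the family member found mainly in myeloid cells, was the exception with 196 and 587, a difference of 2.01. It had a single probe set, so this value stands without a second reading. Of these 4 genes, 1 was at least 2-fold higher and none was lower, beside 7.11% and 6.99% of all measured genes.

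Sulfatases contained the largest difference. Arsb encodes arylsulfatase B, which removes the 4-sulfate from N-acetylgalactosamine in dermatan and chondroitin sulfate, glycosaminoglycans found in cartilage and bone matrix. Macrophages gave 340 and osteoclasts 3701, 14.7-fold higher relative to the shift (3.88 on the log2 scale) and 10.9-fold as deposited. In rank order this was number 36 from the top among 13647 measured genes. A second probe set gave 24.4 and 243 (3.74), while the third was below the measured level in macrophages and only just above it in osteoclasts, with 13.0 and 21.9. Both probe sets measured in the 2 arrays therefore differed by nearly the same amount, that of the brighter being 7.85 times the SD between probe sets. The macrophage signal of the dimmer one, 24.4, was not far above the measured level of 17.0. The other 4 sulfatases stayed within 2-fold. Arsa, which desulfates the myelin lipid sulfatide, gave 391 and 424 (0.55). Ids, which acts on iduronate 2-sulfate, gave 1336 and 906 (-0.13), and its 4 measured probe sets lay between -0.34 and -0.13. Galns, the enzyme for the 6-sulfate of keratan and chondroitin sulfate, gave 599 and 346 (-0.36), and Sgsh, the sulfamidase of heparan sulfate, gave 235 and 120 (-0.54). Sumf1, which activates all sulfatases by converting a cysteine in their active site, was not higher alongside Arsb, with 817 and 461 (-0.39).

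The promoter of Arsb is shown because none of the other 30 genes differed as much. The 250 bases before its start held neither CACGTG nor TCATGTG, the M-box core bound by MITF:
Arsb (chr13:93771429-93771678, plus strand): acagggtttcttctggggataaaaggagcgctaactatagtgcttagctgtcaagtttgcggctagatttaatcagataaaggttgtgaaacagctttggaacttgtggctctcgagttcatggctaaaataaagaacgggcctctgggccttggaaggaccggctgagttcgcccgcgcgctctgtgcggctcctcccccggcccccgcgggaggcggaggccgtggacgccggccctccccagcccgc

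Glycosidases, the largest group with 12 genes, were mostly near the shift. Their median was 0.15, and 7 lay above the shift and 5 below. None was 2-fold higher and Galc alone was 2-fold lower (8.33%), beside 7.11% and 6.99% of all measured genes. Galc, the galactosylceramidase that degrades galactolipids of myelin, gave 727 in macrophages and 252 in osteoclasts (-1.10), and a second probe set with 162 and 55.9 gave the same difference of -1.10. Man2b1, the lysosomal alpha-mannosidase, followed with 3548 and 1420 (-0.89), though its second probe set gave -0.27. Fuca1, the alpha-fucosidase, gave 2019 and 1032 (-0.54) with 3 measured probe sets from -0.72 to -0.29, all on the same side. At the upper end stood Naglu, which removes N-acetylglucosamine from heparan sulfate, with 328 and 450 (0.89, or 1.85-fold). It was among the 5 genes whose deposited signal was higher in osteoclasts, together with Arsb, Smpd1, Arsa and Manba. Manba, the beta-mannosidase, gave 500 and 509 (0.46).

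Several other glycosidases lay closer to the shift, from -0.45 to 0.38. Gaa, the acid alpha-glucosidase that degrades glycogen, gave 357 and 344 (0.38). Hexa, the alpha chain of hexosaminidase, gave 4807 and 4112 (0.21), Gusb, the beta-glucuronidase, 3808 and 3185 (0.18), and Glb1, the beta-galactosidase, 621 and 499 (0.12). Neu1, the lysosomal sialidase, gave 496 and 316 (-0.22), and Idua, the alpha-iduronidase, gave 347 and 188 (-0.45). None of these 6 passed 2-fold on either scale, and all 6 relative differences were smaller than the SD between probe sets. Gla, the X-linked alpha-galactosidase, had 2 probe sets that went apart: the brighter gave 739 and 725 (0.41) and the other 282 and 120 (-0.80), so that its direction depends on the probe set read. The other X-linked genes of the group, Ids and Lamp2, were at -0.13 and -0.59, all within 2-fold relative to the shift.

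Among the lipid and acyl hydrolases 1 of 4 genes was at least 2-fold higher and 2 were at least 2-fold lower, beside 7.11% and 6.99% of all measured genes. Lipa encodes the acid lipase that frees cholesterol and fatty acids from lipoproteins taken up by the cell. It gave 7465 in macrophages and 2075 in osteoclasts, 2.66-fold lower relative to the shift (-1.41) and 3.60-fold lower as deposited. Its other probe sets gave still larger differences, 4578 against 920 (-1.88) and 3045 against 507 (-2.15). All 3 were on the same side and none came within 2-fold of the shift. Ppt1, the palmitoyl-protein thioesterase that removes fatty acids from proteins, gave 836 and 282 (-1.14), and its other bright probe set gave 904 and 242 (-1.47). The remaining 2 measured probe sets of Ppt1 were dim, below 40 in both arrays, and gave -0.41 and 0.24. Asah1, the acid ceramidase, gave 3910 and 1996 (-0.54).

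Smpd1, the acid sphingomyelinase that turns sphingomyelin into ceramide, went the other way, with 240 in macrophages and 705 in osteoclasts. This was 3.97-fold higher relative to the shift (1.99) and 2.94-fold as deposited, number 185 from the top among all measured genes. Its second probe set, with 69.1 and 47.6, gave -0.10. The 2 readings of Smpd1 differ by 4.24 times the SD between probe sets, and the mean of both was 0.94, under 2-fold. The higher call thus rests on the brighter probe set.

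The phosphatase and the peptidase stayed within 2-fold of the shift. Acp2, the lysosomal acid phosphatase, gave 777 and 385 (-0.58) with 3 probe sets from -0.77 to -0.45, all lower. As deposited it was 2.02-fold lower. Tpp1, the tripeptidyl peptidase, gave 3033 and 2681 (0.25), and its second probe set gave 0.76. Activators and carriers, which present lipids to the hydrolases, were close to the shift as well. Psap, the precursor of the saposins, gave 9473 and 6663 (-0.07) and Gm2a, the activator of ganglioside GM2 breakdown, gave 1466 and 1352 (0.32). Npc2, the soluble sterol carrier, gave 6699 and 6457 (0.38), with its 4 probe sets from -0.46 to 0.38. None of these 3 was 2-fold apart on either scale.

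Membrane proteins of the lysosome had the second lowest median of the role groups, -0.59 over 5 genes, and 1 of 5 was at least 2-fold lower, or 3 of 5 as deposited, beside 6.99% and 17.5% of all measured genes. Scarb2 encodes LIMP-2, the membrane protein that carries beta-glucocerebrosidase to the lysosome. It gave 1610 in macrophages and 363 in osteoclasts, 3.29-fold lower relative to the shift (-1.72) and 4.44-fold as deposited, the lowest of the 31 genes by their brightest probe sets and number 218 from the bottom among 13647. A second probe set gave 850 and 320 (-0.98), on the same side but just under 2-fold. By the mean over probe sets Lipa was lower (-1.82) than Scarb2 (-1.35), and likewise with probe sets without a suffix in their name (-1.88 against -1.72). The major membrane glycoprotein genes were lower by less than this. Lamp1 gave 6874 and 3198 (-0.67) from a single probe set. Lamp2 gave 2895 and 1422 (-0.59), and its 4 probe sets spread from -1.29 to 0.16. The gene makes several splice forms, which these values do not tell apart. Npc1, the sterol transporter, gave 576 and 475 (0.16), and Mcoln1, the calcium channel of the lysosome, gave 281 and 230 (0.14) with all 3 probe sets above the shift.

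The Scarb2 promoter is printed as that of the gene with the lowest value by its brightest probe set. It lacked CACGTG but held TCATGTG on the opposite strand, in capitals, a core found in the windows of 4 of the 28 genes (Gla, Ppt1, Scarb2 and Tpp1), or 14.3%, and of 4.31% of all genes in the table. In the 250 bases before the start alone it stood for Gla and Scarb2, 7.14% of the genes against 3.72% of all. By their brightest probe sets, 2 of the 4 genes were above the shift and 2 at least 2-fold below it. The probe sets of Gla and of Ppt1 spanned the shift, so no direction is read from these matches:
Scarb2 (chr5:92505658-92505907, minus strand): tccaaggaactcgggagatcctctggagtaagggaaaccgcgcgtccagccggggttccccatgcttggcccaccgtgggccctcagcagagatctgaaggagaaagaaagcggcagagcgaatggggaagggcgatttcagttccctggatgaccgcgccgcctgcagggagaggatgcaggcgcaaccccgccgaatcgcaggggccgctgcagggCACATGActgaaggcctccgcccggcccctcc

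**Figure D2:**
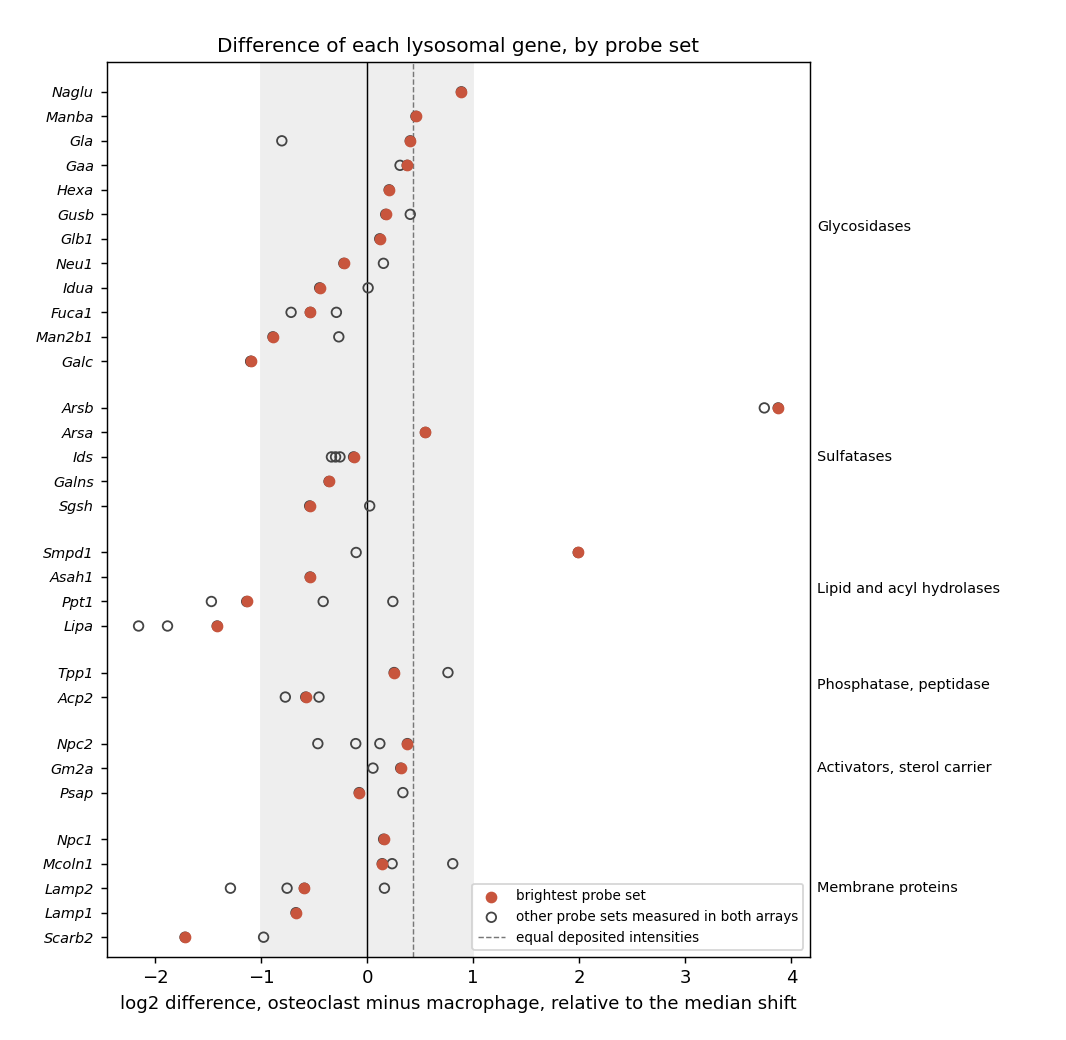
Log2 difference, osteoclast minus macrophage and relative to the median shift, of every probe set of the 31 genes measured in both arrays, with the brightest filled; grey marks differences under 2-fold and the dashed line equal deposited signals. Both Arsb probe sets (3.74 and 3.88) and all 3 of Lipa (-2.15 to -1.41) lie outside the grey band, while Smpd1 has 1 probe set at 1.99 and 1 at -0.10.

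How far the probe sets of a gene went together was counted over the members. Of the 75 member probe sets, 65 were measured in both arrays, 2 in osteoclasts only and 8 in neither. For 22 genes 2 or more were measured in both arrays, and in 13 of these all lay on the same side of the shift. In the other 9 the probe sets spanned it, so that the direction relative to the shift is not settled for them. Among the 6 genes called at 2-fold, Arsb, Lipa, Galc and Scarb2 had all measured probe sets on the same side, and Ppt1 and Smpd1 did not.

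Grouped by the substrate they act on, a grouping added after the values had been seen, the genes of a pathway did not change together. In dermatan and chondroitin sulfate breakdown Arsb stood at 3.88, while the other 5 enzymes, Hexa, Gusb, Ids, Galns and Idua, lay between -0.45 and 0.21. The 5 enzymes of heparan sulfate breakdown had a median of -0.13, from -0.54 for Sgsh to 0.89 for Naglu. For keratan sulfate the 3 genes ranged from -0.36 to 0.21. Sphingolipid breakdown, with 10 genes, had a median of 0.16 and 1 gene at least 2-fold apart in each direction, Smpd1 and Galc. This is 10% each way, close to the 7.11% upward and 6.99% downward among all measured genes. The Smpd1 value is that of its brighter probe set, and the second gave -0.10. Glycoprotein glycans were served by 6 genes with a median of -0.05 and none 2-fold apart, too few to set beside those shares. In the handling of lipoprotein cholesterol, Lipa was lower (-1.41) while the genes for both sterol exporters, Npc1 (0.16) and Npc2 (0.38), were not. Genes shared between pathways, such as Hexa and Glb1, were counted in each.

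**Figure D3:**
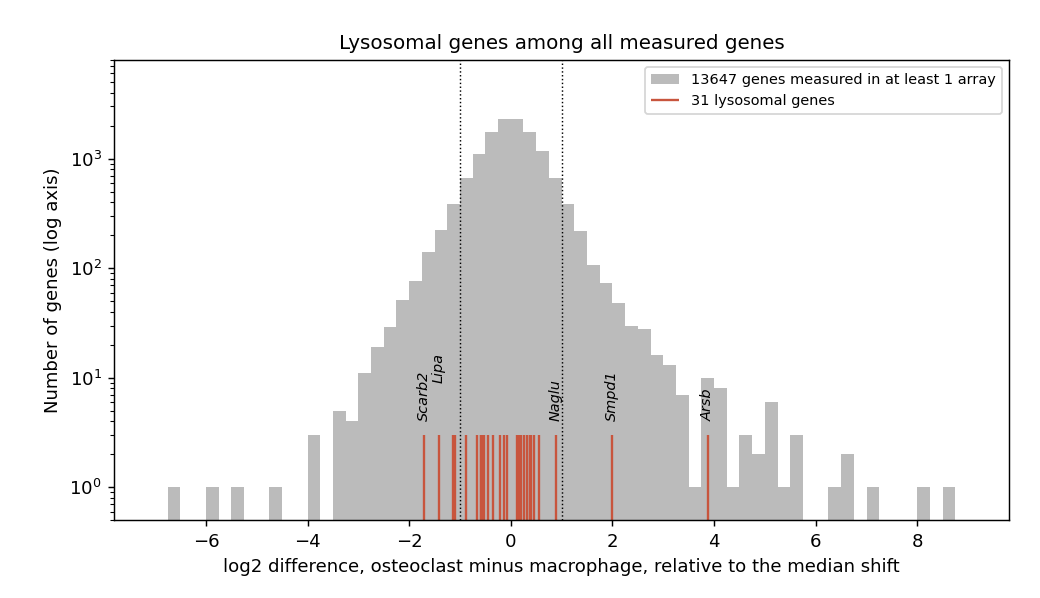
Number of genes (log axis) by log2 difference, osteoclast minus macrophage and relative to the median shift, for the 13647 genes measured in at least 1 array (grey), with the 31 lysosomal genes as vertical marks and 2-fold as dotted lines. Most marks lie in the central peak; Arsb at 3.88 and Smpd1 at 1.99 stand to the right, and Scarb2 at -1.72 and Lipa at -1.41 to the left.

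Other genes of the lysosome were read from lists chosen with earlier results of these data known. Of 11 other hydrolases measured, none was at least 2-fold higher and 1 was lower, beside 7.11% and 6.99% of all measured genes, with a median of -0.31. As deposited 3 of the 11 were lower (27.3%, beside 17.5% of all). The lower gene was Pla2g15, the lysosomal phospholipase, with 797 and 244 (-1.28). Of 19 other membrane proteins, 1 was at least 2-fold higher and 1 lower, or 5.26% each, with a median of -0.04. As deposited 1 was higher and 2 were lower, or 5.26% and 10.5%, beside 3% and 17.5% of all measured genes. Clcn7, the chloride-proton exchanger needed for bone resorption, gave 381 and 1672 (2.57), with its probe sets from 2.01 to 2.57. Slc11a1, the metal transporter of phagosomes in macrophages, gave 4104 and 958 (-1.67).

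Genes for delivery and maturation of lysosomal enzymes went both ways. Of 20 genes, 3 lay at least 2-fold above the shift and 3 at least 2-fold below it. Among all measured genes 7.11% and 6.99% did. As deposited the counts were 1 and 3, or 5% and 15%, beside 3% and 17.5% of all measured genes. Igf2r, the cation-independent mannose 6-phosphate receptor, gave 378 in macrophages and 1130 in osteoclasts (2.01), and its second probe set gave 1.31. Gnptab, the catalytic part of the enzyme that builds the mannose 6-phosphate tag, gave 800 and 1498 (1.34), with probe sets up to 2.21. Gga2, an adaptor that packs the receptors into vesicles, gave 448 and 742 (1.16). The other receptor, M6pr, stayed near the shift with 3464 and 3103 (0.27).

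Lower in osteoclasts were Sort1, the alternative sorting receptor sortilin, with 405 and 98.2 (-1.61), and 2 subunits of the AP-1 adaptor complex, Ap1s2 with 1608 and 280 (-2.09) and Ap1b1 with 791 and 209 (-1.48). The 6 probe sets of Ap1s2 included none above -1.29. Its paralogue Ap1s1, in contrast, gave 1060 and 864 (0.14). As deposited the higher count fell to Igf2r alone, while the same 3 genes were lower.

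**Figure D4:**
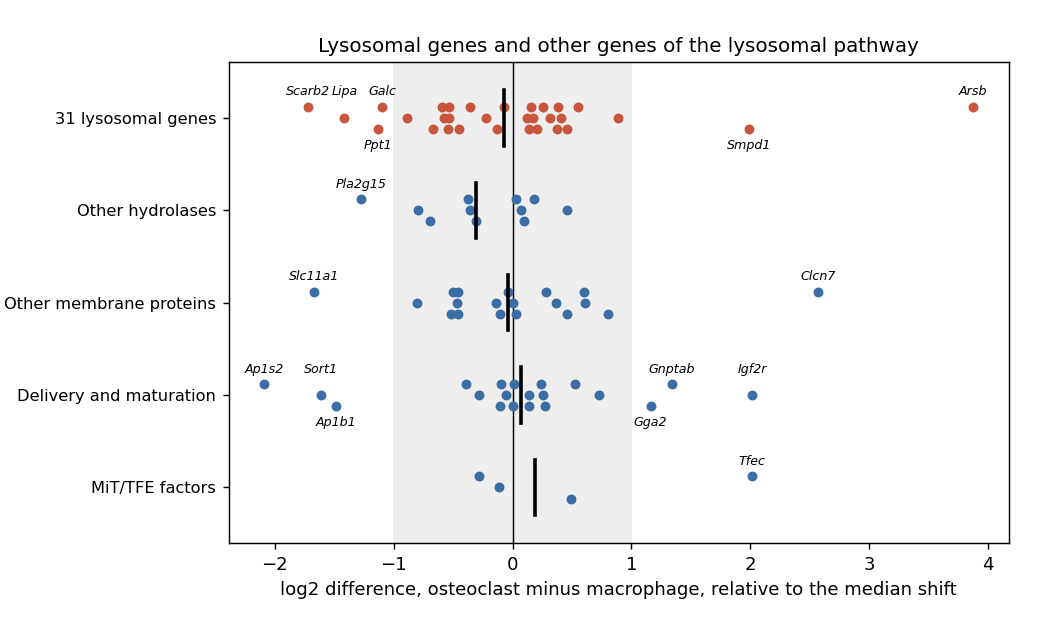
Log2 difference, osteoclast minus macrophage and relative to the median shift, of each measured gene (dots) in the 31 lysosomal genes and 4 further lists, with list medians as black bars and differences under 2-fold in grey. Genes past 2-fold are named; the delivery list reaches from -2.09 (Ap1s2) to 2.01 (Igf2r).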

How the data were processed

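Macrophage and osteoclast RNA was measured on 2 arrays, 1 per group. Per the labels' protocols, biotinylated cRNA was made from 1 µg of Qiagen-purified total RNA in a single amplification cycle. The deposited values are linear intensities of 45101 probe sets per array. The method of probe summarisation, background correction and scaling was not given in the sources used here. All 64 control probe sets were dropped. Of the rest, the 34945 to which the platform annotation gave a single symbol were used, leaving out 932 with several symbols and 9160 without any, and the Entrez identifiers of all 31 genes matched the RefSeq table of GRCm38.p6. Log2 differences were computed from the deposited intensities with Python 3.11.15 and pandas 2.3.3, and centred on their median. A signal below the floor was raised to it. The functions were tested on simulated data. All 31 genes and the lists are named by role; from each further list up to 3 genes past 2-fold in each direction were named, besides a few fixed names. The members and lists were chosen with earlier results of these data known, and the motif TCATGTG and the substrate groups were added after their values were seen. Alternatives were the deposited scale, quantile normalization, a stricter floor, the mean over probe sets, probe sets without a suffix, and other folds. A few listed genes, and protein sequences, are not analysed here.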

Additional observations from a re-analysis of the deposited data

How the results depend on the processing

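No paired analysis was possible because each group has 1 array, and none could be left out in turn. The median difference of the 31 genes was -0.51 as deposited (all genes -0.43), -0.12 after quantile normalization (all genes -0.02), -0.06 with the stricter floor and -0.02 with the mean over probe sets. The count of genes at least 2-fold lower moved from 4 to 8 as deposited; counted at 1.5-fold it was 7 (16.9% of all genes) and at 4-fold 0 (0.92%). The count of genes at least 2-fold higher moved from 2 to 1 with the mean over probe sets, which leaves Arsb (2.80, or 3.81 without its probe set under the floor in macrophages); it was 3 at 1.5-fold (17.2% of all genes) and 1 at 4-fold (1.34%). Galc, Lipa and Scarb2 were lower and Arsb was higher by 2-fold under all 5 alternatives other than the folds; Ppt1 and Smpd1 were not with the mean over probe sets. No gene called at 2-fold changed sign in these. Added after the data were seen, the stricter floor gave an SD between probe sets of 0.43, and the 250 bases before the start alone held CACGTG for 8 genes again and TCATGTG for 2 in place of 4. Of the 31 genes, 4 moved by more than the SD between probe sets with the mean over probe sets and 2 with probe sets without a suffix.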

Other observations

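Some probe sets of the lysosomal genes were under the floor in at least 1 array. An extra probe set of the sialidase gene Neu1, used only in the mean over probe sets, gave 12.6 in macrophages, under the floor, and 26.8 in osteoclasts. In both arrays 8 probe sets were under the floor, 2 of them of Ids, with 14.7 and 1.07 in macrophages and 1.97 and 1.27 in osteoclasts, although the brightest Ids probe set was far above it.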
